A study of Mus musculus with 18 samples.

Results

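Interleukin 10 (IL-10) is the cytokine with which macrophages restrain their own inflammatory response. The effect of adding it back was measured here in bone marrow-derived macrophages (BMDMs) of Il10-/- mice, which cannot supply it themselves, during stimulation with lipopolysaccharide (LPS), the bacterial cell wall component that activates macrophages through Toll-like receptor 4. The comparison sets the 3 libraries titled LPS_IL10 against the 3 titled LPS_Untreated, 6 of the 18 RNA-seq libraries of the series, and covers every gene with an adjusted p-value. All cells came from 12-week-old male Il10-/- mice on the C57BL/6J background and were grown from bone marrow for 6 days in medium conditioned by L929 cells. The LPS + IL-10 cultures were pretreated with recombinant IL-10 at 10 ng/mL for 12 hours and then received LPS at 50 ng/mL for 4 hours. The LPS cultures received the same LPS and no IL-10; the labels call them untreated, and their pretreatment is described as vehicle in the study's methods. Unstimulated cells without (Unstimulated) and with IL-10 (Unstimulated + IL-10), kept for the same time with saline buffer in place of LPS, give the resting levels. The cultures came from 3 mice, and same-numbered libraries were taken as pairs from 1 mouse. The numbers come from the titles, and mouse 1, 2 or 3 below stands for that replicate number. Each culture is a whole population of macrophages, in which fewer cells that express a gene and less RNA per cell cannot be told apart.

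The IL-10 receptor has a ligand-binding chain, Il10ra, and a chain shared with related cytokines, Il10rb. They signal through the kinases Jak1 and Tyk2 to the transcription factor Stat3, and Stat3 switches on the genes through which IL-10 acts, among them Socs3, Bcl3, Nfil3, Sbno2 and Il4ra. In macrophages this pathway is known for lowering the output of IL-12, TNF and IL-6 without shutting down Toll-like receptor signalling itself. Il10-/- mice develop colitis in the presence of gut bacteria, and the study asked how exogenous IL-10 alters the LPS response of their macrophages.

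The 6 libraries held between 12946996 and 21828628 expected counts, and each listed 24485 genes. Values below are expected counts divided by the size factor of the library (normalised counts). Fold changes are LPS + IL-10 over LPS on the log2 scale from DESeq2, with the standard error (SE) of the fit and an adjusted p-value across all tested genes, and a gene was called at an adjusted p under 0.05. The 11 macrophage markers added up to 16640 to 18120 TPM (transcript counts scaled to gene length and library total) in the LPS libraries and 17850 to 19520 in the LPS + IL-10 libraries. Of them 3 were called higher and 1 lower (36.4%, against 17.2% of all tested genes). Neutrophil markers (10 genes, of which Ly6g, Mpo and Elane were among those at or under 3 counts in each library) summed to 36 to 51.7 TPM with LPS and 31.5 to 70.0 with LPS + IL-10. T and NK cell markers summed to at most 8.34 TPM, B cell markers to at most 1.65, mast cell markers to at most 0.61 and erythroid markers to at most 1.23 in any of the 6 libraries. Dendritic cell markers summed to 4.13 to 5.48 TPM with LPS and to 2.48 to 3.66 with LPS + IL-10, groups that did not overlap, although no member passed the test. The 14 cycling cell genes summed to 372.5 to 479.6 TPM with LPS and 312 to 382.2 with LPS + IL-10, and 2 were called lower (14.3%). Fibroblast and stromal markers summed to 4.03 to 7.57 TPM with LPS and 6.57 to 8.87 with LPS + IL-10, and none was called.

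The deleted gene itself kept some reads. Normalised counts of Il10 were 53.7, 61.0 and 74.9 in LPS replicates 1, 2 and 3 and 134, 155 and 177 in LPS + IL-10, and the groups did not overlap (log2 fold change 1.30, SE 0.21, adjusted p = 2.76e-08). Every library was labelled Il10-/-, so the count was not set against wild-type cells.

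IL-10 pretreatment changed 1968 of 11448 tested genes (17.2%), of which 959 were higher (8.38% of those tested) and 1009 lower (8.81%). Most of the changes were small. The median size of a called change was 0.50 on the log2 scale, and 1633 of the called genes (83.0%) moved by less than 2-fold. At least 2-fold changes were seen in 213 genes that rose (1.86%) and 122 that fell (1.07%). In every one of the 3 pairs, 955 of the higher and 1006 of the lower genes moved in the called direction. Across tested genes, all LPS + IL-10 libraries lay above all LPS libraries in 1422 genes (12.4%) and below them in 1561 (13.6%). Fitted to the 6 libraries alone, without the shared spread of the 18, the count was 1089 of 11522 genes (9.45%), of which 1038 were among the 1968, and without mouse 1, 2 or 3 it was 1250, 874 and 1223. The share of higher genes among the calls depended on the scaling. It was 48.7% with median-of-ratios size factors, 71.1% with total-count scaling and 75.3% with limma on log2(TPM + 1), while the median log2 fold change of all tested genes went from -0.02 to 0.08 and 0.07.

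**Figure D1:**
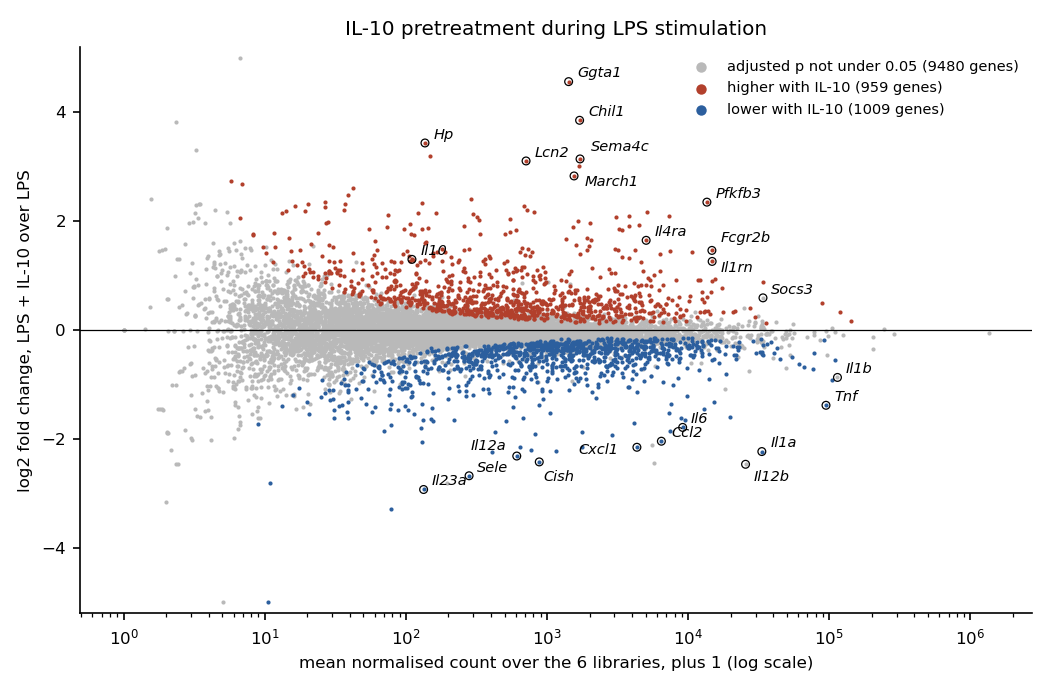
Each point is a tested gene, with its mean normalised count over the 6 libraries plus 1 on the x axis (log scale) and the fitted log2 fold change of LPS + IL-10 over LPS on the y axis, drawn at 5 or -5 where it lay beyond. Red points were higher (959 genes), blue points lower (1009) and grey points not called (9480); circled genes are described in the text. The largest rises among well-expressed genes reached 4.56 (Ggta1), and Tnf, Il6 and Il1a lay below 0 at high counts.

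The LPS + IL-10 libraries did not differ from the LPS libraries to the same extent. Replicate 1 of both groups was sequenced on lane 7, and replicates 2 and 3 on lane 8. Whether lane, library or mouse had a part in the order of the replicates was not tested. The median pair difference of the 1009 lower genes was -0.37 in replicate 1, -0.53 in replicate 2 and -0.46 in replicate 3, and that of the 959 higher genes was 0.47, 0.63 and 0.57. LPS + IL-10 replicate 1 was the library closest to the LPS mean in 61.8% of the lower genes, against 39.3% of all tested genes, and replicate 2 in 6.14%, against 23.1%. The same order returns in the values of most of the genes below that fell.

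Within the receptor and signalling chain, the list of 13 genes had 1 member that rose and 7 that fell. That was 61.5% called, against 17.2% of all tested genes, with a median log2 fold change of -0.42. Il10ra (mm9 chromosome 9, 45061922 to 45077232, minus strand) stood at 10617, 10595 and 9889.7 normalised counts in the LPS libraries and at 7733, 6416 and 6652 in the LPS + IL-10 libraries. The groups did not overlap, and Il10ra fell (log2 fold change -0.58, SE 0.068, adjusted p = 1.92e-15). The resting level was 2441 in Unstimulated and 2517 in Unstimulated + IL-10, so with LPS + IL-10 the receptor remained above its resting level in every library. Il10rb did not pass (log2 fold change 0.12, adjusted p = 0.0982). Jak1 rose (0.31, adjusted p = 4.64e-09), whereas Tyk2, named after its value was seen, fell (-0.30, adjusted p = 0.00165, and 0.161 in the 6 libraries alone). Stat3 was at 9899.8, 9253 and 9141 with LPS and at 10008, 9279 and 9027 with LPS + IL-10, and the groups overlapped (adjusted p = 0.998). In the absence of LPS, the same IL-10 treatment raised Stat3 from a mean of 1748 to 2935 (log2 fold change 0.75, adjusted p = 1.78e-12).

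Of the members of that list called lower, Cish and Socs2 fell furthest, followed by Il10ra. Cish, an inhibitor induced by Stat5, went from 1445, 1593 and 1405 to 540.0, 134 and 158 normalised counts (log2 fold change -2.42, SE 0.52, adjusted p = 5.34e-05). All LPS + IL-10 libraries were below all LPS libraries, and replicate 1 was the highest of the LPS + IL-10 libraries. Stat5a (-0.46, adjusted p = 2.44e-06) and Stat5b (-0.42, adjusted p = 2.94e-06) fell as well, and Socs2, also a target of Stat5 and named after its value was seen, fell by 1.51 on the log2 scale (adjusted p = 0.000627). Pim1, a kinase gene driven by Stat3 and Stat5, fell during LPS (-0.43, adjusted p = 0.000755) and rose with IL-10 alone (0.46, adjusted p = 0.00754).

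Socs3, the feedback inhibitor of cytokine receptors that Stat3 induces, was at 28847, 28375 and 23772 normalised counts with LPS and at 41996, 43947 and 36287 with LPS + IL-10. Every LPS + IL-10 library lay above every LPS library. The fit across all 18 libraries nonetheless left the difference uncalled (log2 fold change 0.59, SE 0.52, adjusted p = 0.534). That fit shares 1 estimate of spread with the resting libraries, whose counts were 174, 23.7 and 36.2. Their part in the missed call was not tested. Fitted to the 6 libraries alone, the difference was called (adjusted p = 5.16e-05).

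Of 19 tested IL-10 effector genes, 14 rose and 2 fell (84.2% called, against 17.2% of all tested genes, with a median of 0.76). This list was put together from genes known as IL-10 targets, with earlier results of these libraries known. Il4ra, the receptor chain for IL-4 and IL-13, went from 2507, 2518 and 2270.1 to 6834, 9288 and 6783 (log2 fold change 1.65, SE 0.12, adjusted p = 1.18e-41). Il1rn, the secreted antagonist of the IL-1 receptor, went from 7724, 8447 and 9909 to 16639, 21704 and 24234 (log2 fold change 1.26, SE 0.14, adjusted p = 6.79e-17). In both genes the groups were far apart and LPS + IL-10 replicate 1 was not the highest. Dusp1, the phosphatase that switches off p38 and JNK kinases, showed the strongest call of the list: its counts were 1311, 1569.6 and 1468 with LPS and 5329, 7222 and 6108 with LPS + IL-10 (log2 fold change 2.10, SE 0.14, adjusted p = 1.49e-48), against resting means of 1099 and 877. LPS alone thus left Dusp1 near its resting level at 4 hours, and only the cultures with both agents were high.

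The transcriptional regulators of this list rose by smaller amounts. Sbno2, a co-repressor in the IL-10 pathway, rose from 4167, 4338 and 3526 to 8152, 9928 and 7569.9 (log2 fold change 1.09, SE 0.11, adjusted p = 2.82e-19). Etv3 (0.95, adjusted p = 1.15e-31), a repressor of the ETS family, Bcl3 (0.76, adjusted p = 0.000237), an atypical IkB protein that holds inhibitory NF-kB dimers on DNA, and Nfil3 (0.71, adjusted p = 1.64e-05), a basic leucine zipper repressor of Il12b, all rose with no overlap between the groups. Hmox1, heme oxygenase, rose by 0.66 (adjusted p = 0.000572), and Tnfrsf1b, whose shed form binds TNF, by 0.50 (adjusted p = 1.4e-09). The 2 members that fell were Arid5a (3513, 3692 and 3186 to 2276, 1592 and 1605; log2 fold change -0.93, SE 0.14, adjusted p = 8.14e-10), an RNA-binding protein that stabilises Il6 transcripts, and Cdkn1a (-0.68, adjusted p = 2.11e-12), the cell cycle inhibitor p21.

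Bases upstream of some of these genes carry the palindrome that STAT proteins bind, written TTCNNNGAA. Windows of the 250 bases before the gene start were taken from RefSeq (build GRCm38.p6) and matched by symbol for 8874 of the 11448 tested genes, and the letters were searched on both strands, which are the same for a palindrome. They were present in 526 windows (5.93%), in 9 of 165 windows of genes that rose at least 2-fold (5.45%) and in 11 of 83 of genes that fell at least 2-fold (13.3%). A match with the letters of an interferon response element (GAAA, any 2 bases, GAAA) shared bases in 9 of the 526 windows, and one with the AP-1 letters (TGANTCA) in 2. The AP-1 letters were in 4.11% of all windows, 6.67% of those of genes that rose at least 2-fold and 12.05% of those that fell. For the interferon letters these shares were 2.90%, 5.45% and 4.82%. None of the shares was tested. Among the genes with the largest rises and the preset genes of the pathway that rose, only the window of Fcgr1, a receptor for antibodies, held the STAT letters. The windows of Socs3, Sbno2 and Irf8 were added after their values were seen, the last as a gene that fell. They are shown 5′ to 3′ in the direction of transcription with the match in capitals, and a match is a run of letters, not a measured binding site. The windows lie at chr3:96293970-96294219 for Fcgr1, chr11:117969367-117969616 for Socs3, chr10:80102703-80102952 for Sbno2, all on the minus strand, and chr8:120736108-120736357 for Irf8 on the plus strand. The matches begin 109, 154 and 26 bases before the start of the first 3 genes, and 171 and 153 bases before that of Irf8, which holds 2.
Fcgr1: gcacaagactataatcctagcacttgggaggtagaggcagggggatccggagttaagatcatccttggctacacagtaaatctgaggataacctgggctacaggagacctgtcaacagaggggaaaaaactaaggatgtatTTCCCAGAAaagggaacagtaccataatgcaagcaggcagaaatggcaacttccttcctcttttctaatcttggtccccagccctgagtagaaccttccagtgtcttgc
Socs3: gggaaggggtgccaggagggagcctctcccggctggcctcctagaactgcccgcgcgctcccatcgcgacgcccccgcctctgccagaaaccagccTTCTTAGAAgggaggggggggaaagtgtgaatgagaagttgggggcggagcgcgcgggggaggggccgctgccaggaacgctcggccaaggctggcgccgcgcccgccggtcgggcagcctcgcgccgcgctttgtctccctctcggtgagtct
Sbno2: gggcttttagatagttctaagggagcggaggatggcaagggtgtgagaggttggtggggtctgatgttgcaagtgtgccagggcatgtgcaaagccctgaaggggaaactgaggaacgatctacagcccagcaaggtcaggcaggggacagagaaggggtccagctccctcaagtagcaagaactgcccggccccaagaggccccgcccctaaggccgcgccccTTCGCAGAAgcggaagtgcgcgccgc
Irf8: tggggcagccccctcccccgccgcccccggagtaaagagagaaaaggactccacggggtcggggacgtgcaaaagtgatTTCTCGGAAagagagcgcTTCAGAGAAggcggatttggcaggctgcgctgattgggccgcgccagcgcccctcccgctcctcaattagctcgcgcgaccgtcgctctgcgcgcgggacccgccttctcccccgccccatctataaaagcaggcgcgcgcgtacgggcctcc

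Ggta1, which encodes the enzyme that makes the alpha-gal sugar, showed the largest rise among genes with a mean count of at least 100 (mm9 chromosome 2, 35255699 to 35318751, minus strand). Its counts were 91.9, 113 and 140.0 with LPS and 2056, 3020.4 and 3101 with LPS + IL-10 (23.7-fold; log2 fold change 4.56, SE 0.17, adjusted p = 1.14e-155). The resting cells held a mean of 971 without and 1302 with IL-10, so the LPS cultures were low and the LPS + IL-10 cultures were above the resting level. March1, the ubiquitin ligase that removes MHC class II and Cd86 from the cell surface, had the same order of groups: 318, 329 and 499.7 with LPS, 2106, 2777 and 3279 with LPS + IL-10 (log2 fold change 2.83, SE 0.18, adjusted p = 5.69e-56), and resting means of 615 and 904. Cyth4 (2.17), an exchange factor for ARF GTPases, Trerf1 (2.21), a transcriptional regulator, Nek6 (2.28), a mitotic kinase, and Il21r (2.42), the IL-21 receptor, likewise had lower mean counts with LPS than in resting cells and means above or near the resting level with LPS + IL-10 (adjusted p at most 4.19e-15). Cd300lb, an activating immunoglobulin-like receptor, rose from 56.6, 44.5 and 28.2 to 181, 269 and 198 (log2 fold change 2.33, adjusted p = 3.14e-34) but stayed far below its resting mean of 3452.

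Other genes with the largest rises had higher mean counts with LPS than at rest, and higher still with LPS + IL-10. Chil1, a secreted chitinase-like protein, went from 209, 254 and 195 to 2529, 3920.3 and 3084 normalised counts (log2 fold change 3.85, SE 0.40, adjusted p = 8.33e-20), against a resting mean of 9.42. Sema4c, a semaphorin, went from 332, 375 and 333 to 2799, 3513 and 2913 (log2 fold change 3.14, SE 0.12, adjusted p = 4.34e-155), and Rnd1, a small GTPase that loosens the actin cytoskeleton, from 373, 438 and 298 to 2619, 3679 and 2724 (log2 fold change 3.02, SE 0.17, adjusted p = 1.77e-69). Samsn1 (2.17, adjusted p = 4.7e-82), an adaptor protein of lymphoid and myeloid cells, followed. None of these groups overlapped.

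Lcn2 and Hp, secreted proteins that bind iron-carrying siderophores and haemoglobin respectively, were also among the 15 largest rises. Lcn2 was at 197, 100.3 and 146 with LPS and 1191, 1511 and 1106 with LPS + IL-10 (log2 fold change 3.11, SE 0.37, adjusted p = 9.26e-15). Hp was at 22.6, 15.5 and 30.7 and 222, 362 and 159.6 (log2 fold change 3.44, SE 0.39, adjusted p = 9.88e-17), with its highest value in replicate 2 and no overlap. Both are also made by neutrophils, whose markers summed to 36 to 51.7 TPM with LPS and 31.5 to 70.0 with LPS + IL-10, an overlapping range in which none of the 4 tested markers was called. Their part in the result was not tested. Nxpe5 (log2 fold change 3.19, adjusted p = 5.22e-22) had counts of 24, 31 and 31.9 with LPS and 230.1, 293 and 276 with LPS + IL-10.

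**Figure D2:**
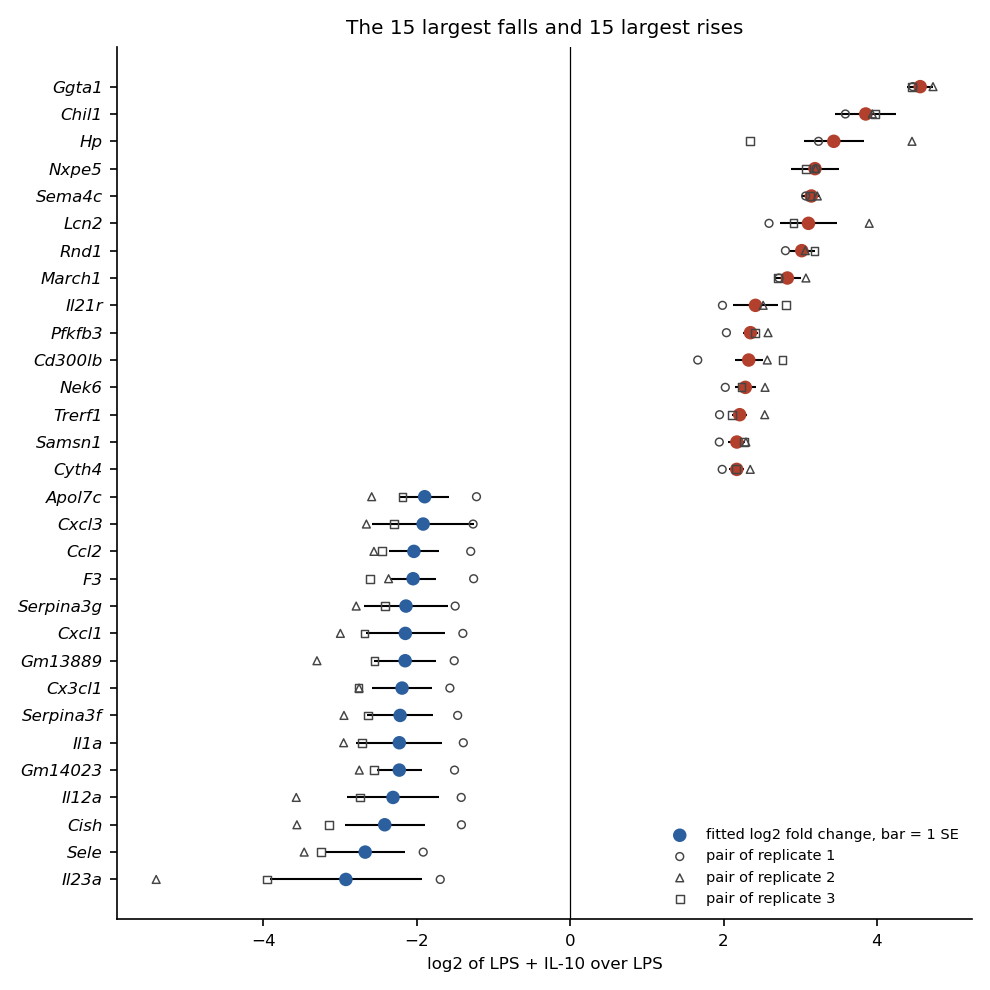
Fitted log2 fold changes of LPS + IL-10 over LPS for the 15 genes with the largest fall (blue) and the 15 with the largest rise (red), with bars of 1 SE, and the log2 difference of each same-numbered pair as an open circle (replicate 1), triangle (2) or square (3). In each of the 15 genes that fell, the pair of replicate 1 lay nearest to 0.

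The largest fall was that of Il23a, the subunit that pairs with the Il12b product to form IL-23 (mm9 chromosome 10, 127733196 to 127735140, minus strand). Its counts were 243, 234 and 225 with LPS and 74.4, 4.56 and 13.5 with LPS + IL-10 (log2 fold change -2.93, SE 0.99, adjusted p = 0.0223), and it had no count in any resting library of either kind. LPS + IL-10 replicates 2 and 3 were far lower than replicate 1, and the call was lost without any one LPS library or without LPS + IL-10 replicate 3 (adjusted p = 0.104 to 0.129). Il12a, the other partner of that subunit, went from 1017, 1024 and 999 to 379, 85.1 and 149 (log2 fold change -2.31, SE 0.60, adjusted p = 0.00122). Il12b itself was at 42189, 38525 and 48725 with LPS and 14262, 3537 and 5689 with LPS + IL-10, and the groups did not overlap. Its fitted change of -2.46 (SE 1.00) missed the threshold across the 18 libraries (adjusted p = 0.0723) and passed it in the 6 libraries alone (adjusted p = 0.0014) and with edgeR (adjusted p = 0.0002). The 3 genes thus had 18.1%, 20.1% and 13.2% of the rise over resting cells left for Il12b, Il12a and Il23a.

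Of the 20 tested cytokine genes, 1 rose and 13 fell (70.0% called, against 17.2% of all tested genes, with a median of -1.32). The sum of all 22 listed was 24610 to 29830 TPM in the LPS libraries and 9698 to 14430 in the LPS + IL-10 libraries. Tnf went from 145049, 136379 and 129045 to 72494, 40773 and 44546 normalised counts (log2 fold change -1.38, SE 0.25, adjusted p = 9.96e-07). Il6 went from 13638, 11195 and 17655 to 5802, 2061 and 4462 (log2 fold change -1.79, SE 0.42, adjusted p = 0.000266). Il1a went from 48430.1, 44768 and 71189.8 to 18430.4, 5773 and 10873 (log2 fold change -2.23, SE 0.56, adjusted p = 0.0009). In all of them the groups were separate and LPS + IL-10 replicate 1 was the highest of its group. Without mouse 3, Il6 (adjusted p = 0.103) and Il1a (0.137) missed the threshold. Measured from the resting mean to the LPS mean, 38.3% of the rise of Tnf, 29.0% of that of Il6 and 21.3% of that of Il1a were left with IL-10.

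Il1b, in contrast with Il1a, kept 54.8% of its rise: it was at 142152, 142897 and 157530.3 with LPS and 91893, 70797 and 79885 with LPS + IL-10. The groups did not overlap, but the change of -0.87 was not called in the fit of 18 libraries (adjusted p = 0.164); it was called in the 6 libraries alone (adjusted p = 6.21e-10). Csf1 (log2 fold change -1.65, SE 0.31, adjusted p = 2.55e-06), the macrophage growth factor, Osm (-1.26, adjusted p = 1.32e-07), a cytokine of the IL-6 family, and Il27 (-1.22, adjusted p = 0.000175), a relative of IL-12, fell as well. Without mouse 2 Il27 missed the threshold (adjusted p = 0.0586). The 1 cytokine that rose was Il19, a member of the IL-10 family, at 52.3, 54.8 and 55.2 with LPS and 125, 135 and 126 with LPS + IL-10 (log2 fold change 1.25, SE 0.23, adjusted p = 1.95e-06); it was at or near 0 in resting cells.

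**Figure D3:**
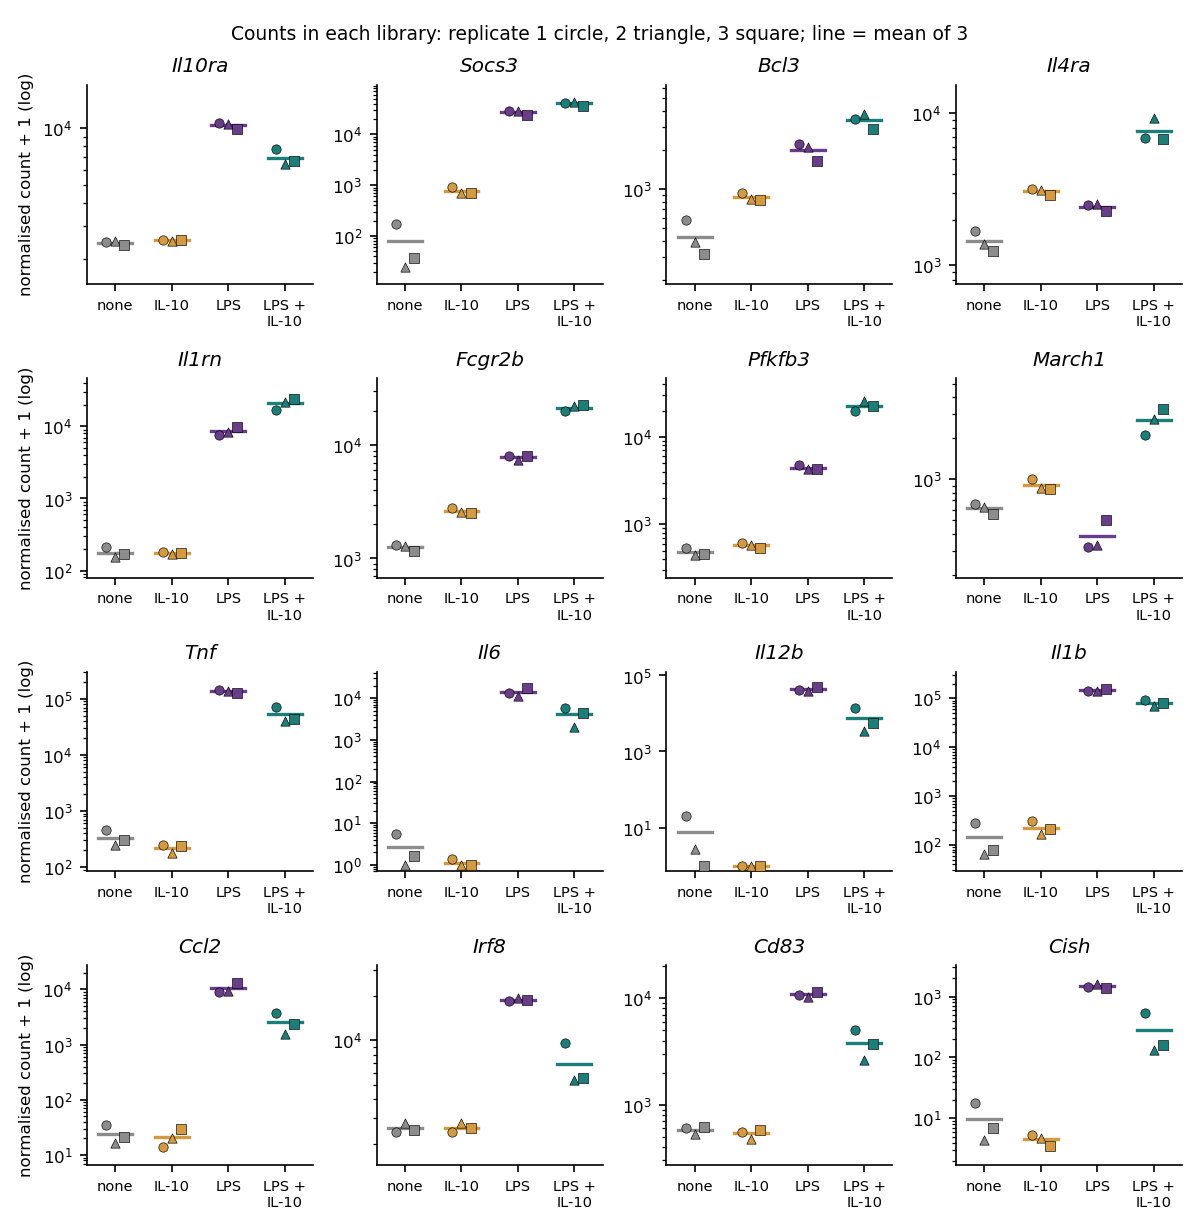
Normalised counts plus 1 (log scale) of 16 genes in each library of the unstimulated cells without and with IL-10 and the LPS-stimulated cells without and with IL-10, with replicate 1 as a circle, 2 as a triangle, 3 as a square and the mean of 3 as a line. Il4ra, Il1rn, Fcgr2b, Pfkfb3 and March1 were highest with LPS + IL-10, and Tnf, Il6, Il12b, Ccl2, Irf8, Cd83 and Cish were lower with LPS + IL-10 than with LPS in all 3 libraries while above both resting groups.

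Chemokine genes moved in the same direction as the cytokines. No CC or CXC chemokine gene rose, while 7 of 11 tested CC genes (63.6% called, median -0.92) and 6 of 8 tested CXC genes (75.0%, median -1.27) fell. Over all tested genes 17.2% were called. Ccl2, which attracts monocytes through Ccr2, went from 8988, 9281 and 12871 to 3657, 1573 and 2349.6 (log2 fold change -2.04, SE 0.33, adjusted p = 2.36e-08), and Ccl7, with the same receptor, from 5170.5, 5702 and 8174 to 2382, 1326 and 2112 (log2 fold change -1.71, SE 0.21, adjusted p = 4.08e-14). The neutrophil attractants Cxcl1 (7489, 6391 and 7314 to 2838, 799.6 and 1139; log2 fold change -2.15, SE 0.52, adjusted p = 0.000463), Cxcl2 (-1.59, adjusted p = 1.09e-05) and Cxcl3 (-1.92, adjusted p = 0.0268) fell together. Cxcl1 missed the threshold without mouse 3 (adjusted p = 0.232), and Cxcl3 without any single library other than LPS + IL-10 replicate 1 (adjusted p = 0.106 to 0.167). Ccl3 remained abundant (145542, 131688 and 134654 with LPS, 90019, 62074 and 65989.8 with IL-10; log2 fold change -0.92, SE 0.13, adjusted p = 1.42e-10). Ccl24 (-1.44), an attractant of eosinophils, Ccl12 (-0.69) and Cxcl11 (-0.94) also fell (adjusted p at most 0.00274). Cx3cl1, the membrane-bound chemokine fractalkine, went from 1444, 1123 and 1241 to 486, 166 and 182 (log2 fold change -2.19, SE 0.39, adjusted p = 4.28e-07).

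Cxcl10 and Ccl5, chemokines that interferon also induces, had no p-value in the fit of 18 libraries. Cxcl10 was at 131583, 133735 and 133664 with LPS and 104506, 85883 and 98027 with LPS + IL-10, and Ccl5 at 86232, 84012 and 75383 and 81071, 74461 and 68332. They were among 10 genes with counts that the DESeq2 filter on outlying counts had removed. In Unstimulated replicates 1, 2 and 3 the resting counts were 130, 6.77 and 19.4 for Cxcl10 and 483, 28.8 and 43.6 for Ccl5. Il1b (282, 62.6 and 77.8) and Il12b (18.5, 1.69 and 0) were also highest in resting replicate 1. These resting libraries lie outside the compared groups, and their part in the missing p-values and missed calls was not tested. In the 6 libraries alone Cxcl10 was called lower (adjusted p = 0.00086) and Ccl5 was not (adjusted p = 0.768), although with the replicate block added Ccl5 was called lower as well (adjusted p = 0.0217); the groups overlapped in Ccl5 and not in Cxcl10. Among the tested chemoattractant receptors, Ccr1 (0.65, adjusted p = 0.0278) and the complement receptor C3ar1 (0.32, adjusted p = 0.00643) rose and Ccrl2, which presents chemerin, fell (-0.37, adjusted p = 0.00013). Both rises missed the threshold without LPS replicate 1 (adjusted p = 0.144 and 0.0649 for Ccr1 and C3ar1), LPS replicate 2 (0.127 and 0.056) or LPS + IL-10 replicate 3 (0.155 and 0.0738).

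The receptors that sense LPS and their adaptors included few large changes. Of 23 tested Toll-like receptors and adaptors, 2 rose and 4 fell (26.1% called, against 17.2% of all tested genes; median -0.02, 0.07 with total-count scaling). Cd14, the LPS co-receptor, was at 30385, 34168 and 31114 and 33669.7, 35572 and 34222 (adjusted p = 0.415, and 0.0221 in the 6 libraries with the replicate block), and the adaptor Myd88 at 7936, 8067 and 7209 and 8019.6, 7945 and 7325 (adjusted p = 0.978), overlapping in each. The largest changes among the called members were in Irak3 and Cd180. Irak3, the inactive kinase IRAK-M, went from 1947, 1932 and 1650.1 to 3577, 4135 and 3763 (log2 fold change 1.05, SE 0.12, adjusted p = 3.28e-17), and Cd180, a relative of Toll-like receptor 4 without its signalling domain, from 5867, 5729 and 7720.2 to 3531, 2601 and 3916 (log2 fold change -0.94, SE 0.14, adjusted p = 2.65e-09).

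NF-kB is the transcription factor family that LPS activates, with IkB proteins as its inhibitors. Of 14 tested subunits and IkB genes none rose and 6 fell (42.9% called, against 17.2% of all tested genes, with a median of -0.31). Rel, the subunit c-Rel on which Il12b transcription depends, fell furthest (6282, 5397 and 6295 to 4042, 2947 and 4116; log2 fold change -0.69, SE 0.11, adjusted p = 5.36e-08). Nfkb1 (-0.40), Ikbkb (-0.43), Nfkbib (-0.48) and Nfkbie (-0.47) fell by less (adjusted p at most 0.0117), though Nfkbib missed the threshold in the 6 libraries alone (adjusted p = 0.0576) and without LPS replicate 1 (0.0704) or LPS + IL-10 replicate 3 (0.0537), and Nfkbie with total-count scaling (0.0609) and without LPS replicate 1, LPS replicate 2 or LPS + IL-10 replicate 2 (0.0611 to 0.0749). Nfkbia, the main IkB protein, was at 35014, 34362 and 30719 and 36905, 35509 and 32149.6 (adjusted p = 0.809). Among 12 tested feedback inhibitors of NF-kB, 5 rose and 2 fell (58.3% called, against 17.2% of all tested genes). The ubiquitin-binding partners of A20, Tnip1 (log2 fold change 0.70, SE 0.12, adjusted p = 5.68e-07) and Tnip2 (0.71, adjusted p = 1.53e-08), rose, as did Pdlim2 (0.91, adjusted p = 0.000564) and the inhibitory receptor Sirpa (0.34, adjusted p = 8.64e-07), while the ubiquitin ligase Peli1 fell (-0.44, adjusted p = 1.04e-08). Tnfaip3, which encodes A20 itself, had counts of 39750.5, 38274 and 39029.6 and 39682, 37505 and 38755 (adjusted p = 0.96). The median of the list was -0.05, and 0.05 with total-count scaling.

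Interferon regulatory factors, which partner with NF-kB at cytokine genes, included 3 that fell and none that rose among 8 tested. That was 37.5% called, against 17.2% of all tested genes. Irf8, the factor of monocyte and dendritic cell development that acts at Il12b, went from 18417, 19337 and 18685 to 9619, 5416 and 5572 (log2 fold change -1.45, SE 0.16, adjusted p = 9e-18); 26.6% of its rise over resting cells was left. Irf1 went from 17957, 18925 and 17617 to 11644, 8572 and 8985 (log2 fold change -0.90, SE 0.27, adjusted p = 0.00637), though without LPS + IL-10 replicate 2 its adjusted p was 0.0574, and Irf4 was low in both groups (19.8, 14.5 and 19.6 and 6.77, 6.08 and 7.21; adjusted p = 0.0276, and 0.186 in the 6 libraries alone). Irf1 also missed the threshold without mouse 2 (adjusted p = 0.195) or mouse 3 (0.0961). The dendritic cell markers, also lower in sum with IL-10 as given above, did not pass as single genes, and their part in these results was not tested.

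Of 16 tested AP-1, ATF and EGR factors, 6 rose and 6 fell (75.0% called, against 17.2% of all tested genes, with a median of 0.03). Batf, a factor that pairs with Jun proteins, rose from 400.1, 391 and 359 to 761, 851 and 824 (log2 fold change 1.08, SE 0.14, adjusted p = 1.82e-13). Fosl2 (0.99) and Jun (0.54) rose as well (adjusted p at most 6.47e-10). Egr2 (-1.15) and Atf3 (-0.45), a repressor of Toll-like receptor targets, fell (adjusted p at most 1.25e-05). Batf3, named after its value was seen, fell by 2.81 on the log2 scale (adjusted p = 0.000954) at counts of 11.3, 25.9 and 13.5 against 6.77, 1.52 and 0. The MAP kinase phosphatases split as well, with 4 that rose and 4 that fell among 11 tested (72.7%, against 17.2% of all tested genes). Beside Dusp1, Dusp16, which acts on JNK, rose from 1903, 1810.5 and 2016 to 4305, 4854 and 5429 (log2 fold change 1.35, SE 0.11, adjusted p = 1.71e-30), and Dusp7 rose (0.83). Dusp5 (-1.36), Dusp8 (-0.95) and Dusp2 (-0.32) fell (adjusted p at most 0.00158), Dusp2 without a call in the 6 libraries alone (adjusted p = 0.0558).

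Among genes for molecules through which macrophages instruct T cells, more fell than rose. Of 11 tested costimulatory and checkpoint ligands, 1 rose and 6 fell (63.6% called, against 17.2% of all tested genes, with a median of -0.50). Cd83, which stabilises MHC class II and Cd86 on the surface, went from 10738, 10345 and 11542 to 5065, 2615 and 3727 (log2 fold change -1.52, SE 0.18, adjusted p = 2.49e-15). Cd80 went from 270.0, 289.5 and 425 to 157, 56.2 and 100.1 (log2 fold change -1.65, SE 0.38, adjusted p = 0.000207) and Cd86 from 1625, 1521 and 2006 to 1282, 1015 and 1346 (log2 fold change -0.50, SE 0.16, adjusted p = 0.0128). Cd80 missed the threshold without LPS + IL-10 replicate 3 (adjusted p = 0.0554), and Cd86 without LPS replicate 3 (0.121) or LPS + IL-10 replicate 2 (0.12). The OX40 ligand Tnfsf4 (-1.19), Icosl (-0.81) and the checkpoint protein Vsir (-0.50) fell too (adjusted p at most 6.36e-06), and the exception was Tnfsf9, the 4-1BB ligand, which rose from 679, 667 and 622 to 1189.5, 1307 and 1305 (log2 fold change 0.95, SE 0.12, adjusted p = 3.07e-14). Cd40 (47419, 46925 and 45840.0 and 35926, 29297 and 32679) and Cd274 (25028, 25306 and 28591 and 19624, 17171 and 19539), which encodes PD-L1, had groups that did not overlap and changes of -0.52 and -0.49. Neither was called in the fit of 18 libraries (adjusted p = 0.16 and 0.0563), and both were with the replicate as a block (0.00703 and 0.0417) and in the 6 libraries alone (0.000184 and 0.00064).

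Among 10 tested genes of MHC class II presentation (30% called, against 17.2% of all tested genes), March1 and Ctss (0.14, adjusted p = 0.0394) rose and Ciita, the master regulator of the class II genes, fell from 129, 121 and 117 to 79.8, 51.7 and 57.7 (log2 fold change -0.95, SE 0.24, adjusted p = 0.000814). Ciita missed the threshold without mouse 2 (adjusted p = 0.0998) or mouse 3 (0.0705). The class II chain gene H2-Ab1 was at 1093, 1023 and 843 and 1039, 1049 and 1013 (adjusted p = 0.902), and the invariant chain Cd74, higher in all 3 pairs, was not called (log2 fold change 0.19, adjusted p = 0.411) and was called in the 6 libraries with the replicate block (adjusted p = 0.00141). Of 15 tested class I genes 1 was called (6.67%, against 17.2% of all tested genes), the chaperone Pdia3 (0.25, adjusted p = 0.0261). Neither Ctss nor Pdia3 was called in the 6 libraries alone (adjusted p = 0.505 and 0.275).

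Fc receptors, with which macrophages bind antibody-coated targets, rose in 5 of 6 cases (83.3% called, against 17.2% of all tested genes, with a median of 0.57). The list summed to 3212 to 3971 TPM with LPS and 4631 to 5922 with LPS + IL-10. The inhibitory receptor Fcgr2b (mm9 chromosome 1, 172890689 to 172906678, minus strand) went from 8011, 7389 and 8087 to 20035, 22192 and 22599.8 (log2 fold change 1.47, SE 0.069, adjusted p = 2.77e-97). The activating receptors Fcgr3 (2559, 2903 and 2776 to 5473, 7386 and 6767; log2 fold change 1.25, SE 0.11, adjusted p = 3.54e-30) and Fcgr1 (7912, 8259 and 8081 to 11485, 13176 and 12899; log2 fold change 0.63, SE 0.10, adjusted p = 2.27e-08), whose upstream window is shown above, rose with no overlap, and Fcgr4 (0.51, adjusted p = 0.000488) and the recycling receptor Fcgrt (0.28, adjusted p = 0.0442, and 0.163 in the 6 libraries alone) by less. Fcgr2b, Fcgr3 and Fcgr4 lie in a gene cluster with similar sequences, so reads could have been divided among them. The signalling chain Fcer1g did not pass (adjusted p = 0.775).

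LPS induces antiviral genes through type I interferon. Of 25 tested antiviral genes 2 fell and none rose (8% called, against 17.2% of all tested genes), with a median of -0.22 and 24 of 25 fitted changes below 0. The 2 were Ifih1, the RNA sensor MDA5 (-0.41, adjusted p = 0.0198), and Parp14 (-0.42, adjusted p = 0.0278). With total-count scaling or either limma fit neither was called. Both missed the threshold without LPS replicate 3 (adjusted p = 0.128 and 0.115) or LPS + IL-10 replicate 2 (0.173 and 0.198). Parp14 also missed it with edgeR (0.0549) and without LPS replicate 1 (0.0738). In the 6 libraries alone 4 of the list were called lower. Rsad2, the most abundant of them, had counts of 220936, 218747 and 246297 with LPS and 184375, 161789 and 196976 with LPS + IL-10, which did not overlap (log2 fold change -0.34, adjusted p = 0.691, and 3.38e-11 in the 6 libraries with the replicate block). Ifnb1, which encodes interferon beta and was named after its value was seen, fell (-1.40, adjusted p = 0.000337) at counts of 113, 151 and 157 with LPS and 74.4, 31.9 and 53.2 with LPS + IL-10. It missed the threshold without mouse 2 (adjusted p = 0.0991) or mouse 3 (0.0705). Among 13 tested interferon-inducible GTPases Gbp9 was the 1 called in the fit of 18 libraries (4899, 4519 and 5386 to 3332, 2712 and 3496; log2 fold change -0.63, SE 0.14, adjusted p = 0.00014). That was 7.69% of the list, against 17.2% of all tested genes. The 6 libraries alone gave 4 lower GTPase genes and edgeR 3. Oas, Ifit and GTPase genes have near-identical relatives, and their reads are uncertain.

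**Figure D4:**
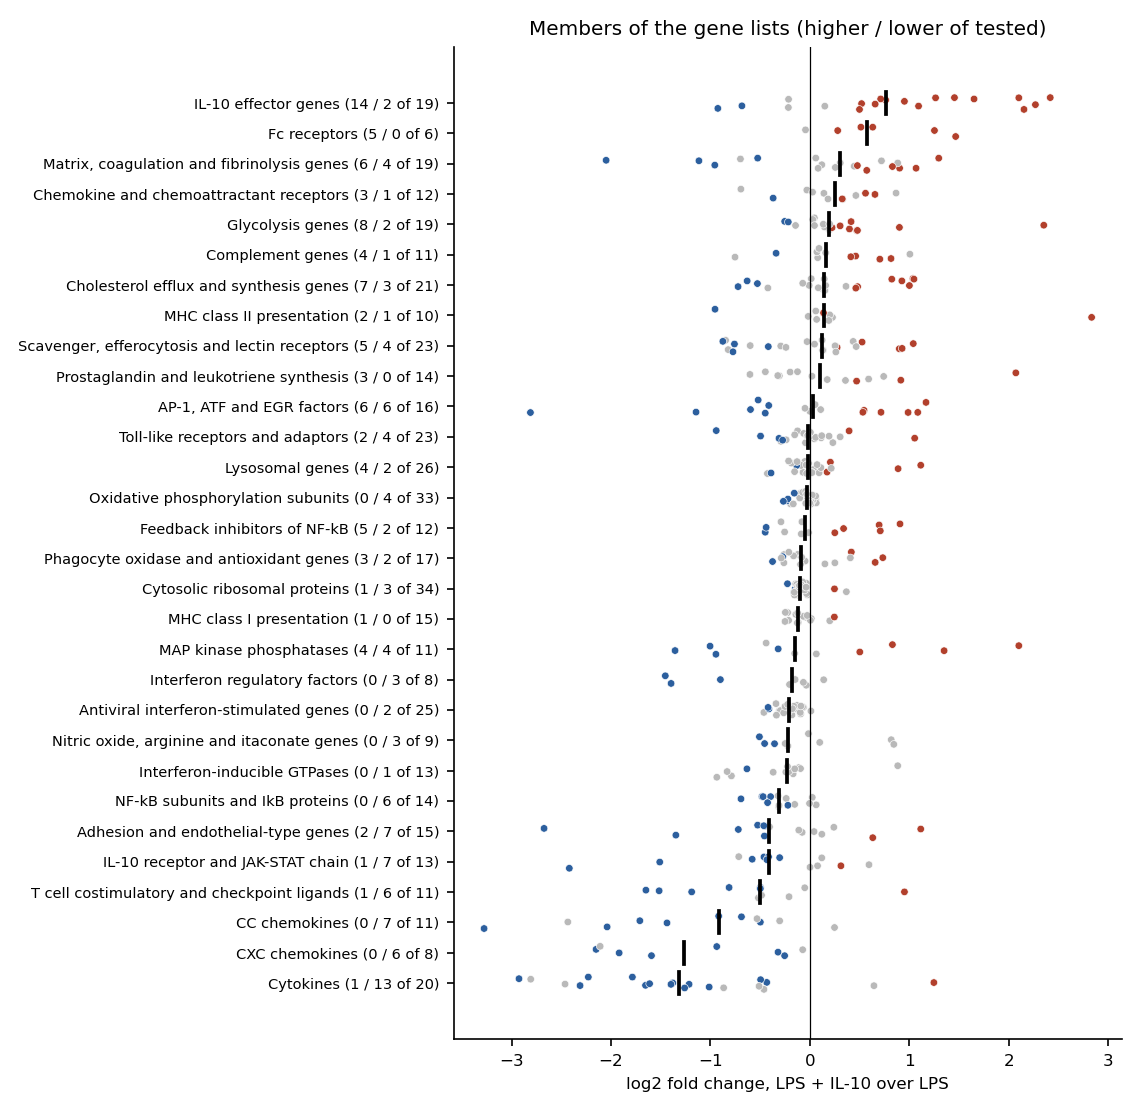
Fitted log2 fold changes of LPS + IL-10 over LPS for the tested members of 30 gene lists, ordered by median (black bar), with members that rose in red, fell in blue and were not called in grey; each label gives higher / lower of tested. Cytokines and chemokines lie lowest (medians -1.32 to -0.92) and the IL-10 effector genes (0.76) and Fc receptors (0.57) highest.

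Uptake receptors were divided. Of 23 tested scavenger, efferocytosis and lectin receptors 5 rose and 4 fell (39.1%, against 17.2% of all tested genes). The scavenger receptor Msr1 went from 9921, 8891 and 11987 to 16728, 18200.0 and 22474 (log2 fold change 0.90, SE 0.13, adjusted p = 8.95e-10), and Cd5l, a secreted inhibitor of macrophage death, from 551, 503 and 584 to 853, 1050.4 and 1206 (log2 fold change 0.93, SE 0.17, adjusted p = 6.8e-07). Olr1 (417, 473 and 499.7 to 273, 239 and 246; log2 fold change -0.88, SE 0.15, adjusted p = 1.92e-07), the receptor for oxidised lipoprotein, Clec7a (-0.77, adjusted p = 0.000154), the beta-glucan receptor Dectin-1, and Lgals3 (-0.42, adjusted p = 6.31e-05) fell. Among the tested complement genes, Itgam (10762, 11453 and 10782 to 17129.9, 18341 and 18243; log2 fold change 0.70, SE 0.063, adjusted p = 1.81e-26), the CD11b chain of complement receptor 3, C1ra (0.82, adjusted p = 0.000267) and Cfp (0.41, adjusted p = 0.00148) rose and Itgax, the CD11c chain, fell (-0.34, adjusted p = 0.00771, and 0.0781 in the 6 libraries alone). C1ra missed the threshold without mouse 1 (adjusted p = 0.107) or mouse 3 (0.0689).

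Nos2, the inducible nitric oxide synthase, was at 15493, 15956 and 14663 with LPS and 16363, 18223 and 14798 with LPS + IL-10, with overlap (adjusted p = 0.543), and Acod1, which makes itaconate, at 143529, 152063 and 144105 and 145681, 142615 and 144529, one of the genes without a p-value. The arginine transporters Slc7a2 (-0.46, adjusted p = 2.54e-05) and Slc7a1 (-0.36, adjusted p = 0.0253) and the polyamine enzyme Sat1 (-0.51, adjusted p = 0.000141) fell. Slc7a1 missed the threshold in the 6 libraries alone (adjusted p = 0.109), with total-count scaling (0.131) and without any of LPS replicates 1 and 2 and LPS + IL-10 replicates 2 and 3 (0.0878 to 0.183). Arg1 had at most 7.6 normalised counts in any of the 6 libraries. In the prostaglandin list 3 of 14 rose and none fell (21.4%, near the 17.2% of all tested genes). Ptges, the inducible enzyme that makes prostaglandin E2, went from 1200.4, 1291 and 1072 to 4589, 5723 and 4651 (log2 fold change 2.07, SE 0.17, adjusted p = 5.69e-30), and Pla2g4a, which frees arachidonic acid, from 775, 747 and 1101 to 1451, 1444 and 2039 (log2 fold change 0.91, SE 0.16, adjusted p = 6.49e-07). Ptgs2, the cyclooxygenase between them, was at 58382, 51102 and 72221 with LPS and 47791, 35497 and 49891 with LPS + IL-10, with all IL-10 libraries lower; it was not called (log2 fold change -0.45, adjusted p = 0.74, and 2.62e-05 in the 6 libraries with the replicate block). In the oxidase list 3 of 17 rose and 2 fell (29.4%, against 17.2% of all tested genes). Rac2 (log2 fold change 0.73, SE 0.079, adjusted p = 3.01e-18) and the subunit Ncf4 (0.42, adjusted p = 0.000531) were up. The subunit Ncf1 was down (-0.38, adjusted p = 0.00213, and 0.0519 in the 6 libraries alone).

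Of 15 tested adhesion genes 2 rose and 7 fell (60.0%, against 17.2% of all tested genes, with a median of -0.41). Sele, the adhesion molecule E-selectin, went from 519, 381 and 548 to 137, 33.4 and 56.8 (log2 fold change -2.67, SE 0.52, adjusted p = 4.71e-06) and had no count in resting cells. Vcam1 went from 10334, 8856 and 13352 to 5209, 2639 and 4935 (log2 fold change -1.35, SE 0.32, adjusted p = 0.000319) and Icam1 from 98893, 95952 and 88962 to 68621, 50696 and 52987 (log2 fold change -0.72, SE 0.18, adjusted p = 0.00111). Without mouse 3 the adjusted p-values of Sele, Vcam1 and Icam1 were 0.0777, 0.0589 and 0.181. These are known best from endothelium, whose other markers summed to 11.2 to 13.4 TPM with LPS and 11 to 12 with LPS + IL-10, with Vwf called lower (-0.47, adjusted p = 0.0186; not called in the 6 libraries alone, adjusted p = 0.101, with total-count scaling, 0.0582, or without LPS replicate 1, LPS replicate 2 or LPS + IL-10 replicate 3, 0.0671 to 0.153) and 2 of the 5 at or under 3 counts; their part in the result was not tested. Ednrb, an endothelin receptor, rose from 235, 261 and 325 to 543, 593 and 641 (log2 fold change 1.11, SE 0.29, adjusted p = 0.00136), a call that missed the threshold without LPS replicate 2 (adjusted p = 0.0642) or LPS + IL-10 replicate 3 (0.0617). Among 19 tested matrix, coagulation and fibrinolysis genes 6 rose and 4 fell (52.6%, against 17.2% of all tested genes). Tissue factor, F3, went from 179.6, 216 and 225 to 74.4, 41.0 and 36.1 (log2 fold change -2.05, SE 0.30, adjusted p = 5.13e-10). Plau (-1.12), the urokinase, and its receptor Plaur (-0.96) fell (adjusted p at most 8.14e-10), while Serpinb2, an inhibitor of urokinase, rose from 156, 152 and 201 to 318, 351 and 394 (log2 fold change 1.07, SE 0.19, adjusted p = 4.35e-07).

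Metabolic genes included one of the largest rises by test. Of 19 tested glycolysis genes 8 rose and 2 fell (52.6%, against 17.2% of all tested genes, with a median of 0.19). The list summed to 4133 to 4508 TPM with LPS and 5195 to 6083 with LPS + IL-10. Pfkfb3, which makes the sugar phosphate that speeds up glycolysis, went from 4790.1, 4291 and 4255 to 19667, 25667 and 22705 (5.1-fold; log2 fold change 2.35, SE 0.10, adjusted p = 4.27e-122), against resting means of 475 and 573. The lactate exporter Slc16a3 (0.90), the glucose transporter Slc2a1 (0.47), Tpi1 (0.41) and Ldha (0.40) rose by less (adjusted p at most 0.000423). Of 33 tested subunits of oxidative phosphorylation 4 fell and none rose (12.1%, against 17.2% of all tested genes), by 0.27 at most (Cox5a, adjusted p = 0.00448); none of the 4 was called in the 6 libraries alone. Ribosomal protein genes had 1 rise and 3 falls among 34 (11.8%, against 17.2% of all tested genes), none called in the 6 libraries alone. Their median was -0.10, and 0.00 with limma on TPM.

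In cholesterol metabolism 7 of 21 tested genes rose and 3 fell (47.6%, against 17.2% of all tested genes, with a median of 0.14). The efflux transporter Abca1 went from 3246, 3915 and 3763 to 5399.6, 7179 and 6753 (log2 fold change 0.82, SE 0.10, adjusted p = 1.68e-13), whereas the transporter Abcg1 fell (1277, 1308 and 1395 to 865, 828 and 875; log2 fold change -0.63, SE 0.10, adjusted p = 1.16e-08) together with Mylip (-0.72, adjusted p = 2.99e-11), a ligase that degrades the LDL receptor, and Lpl (-0.53, adjusted p = 0.000111). The synthesis enzymes Sqle (409, 331 and 298 to 698, 765 and 663; log2 fold change 1.04, SE 0.13, adjusted p = 2.42e-13) and Lss (1.00, adjusted p = 8.39e-10) rose. Of 26 lysosomal genes 4 rose and 2 fell (23.1%, against 17.2% of all tested genes; median -0.02, 0.07 with total-count scaling). Ctsc, the protease cathepsin C, rose from 24976, 21808 and 25113 with LPS to 40791, 43516 and 48599.5 with LPS + IL-10 (log2 fold change 0.89, SE 0.18, adjusted p = 1.49e-05). Tfeb, the regulator of lysosomal genes, rose from 67.9, 57.9 and 40.5 to 119, 161 and 86.6 (log2 fold change 1.11, SE 0.20, adjusted p = 5.15e-07), far below its resting mean of 902.

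The remaining genes among the 15 largest falls belong to none of these groups. Serpina3f went from 1839, 1804 and 2069 to 664, 233 and 331 (log2 fold change -2.22, SE 0.44, adjusted p = 7.18e-06) and its neighbour Serpina3g from 2765, 2678 and 3252 to 977, 386 and 608 (log2 fold change -2.14, SE 0.55, adjusted p = 0.00121), members of a cluster of protease inhibitors with similar sequences whose reads are uncertain. Serpina3g missed the threshold without LPS replicate 1 (adjusted p = 0.0527), LPS replicate 3 (0.0688) or LPS + IL-10 replicate 3 (0.054). Apol7c, an apolipoprotein L gene, fell from 1236, 1239.7 and 1432 to 529, 205 and 314 (log2 fold change -1.90, SE 0.32, adjusted p = 1.12e-07). Without mouse 2 the adjusted p was 0.233 for Apol7c, 0.0563 for Serpina3f and 0.147 for Serpina3g. Without mouse 3 it was 0.0532 for Serpina3f and 0.229 for Serpina3g. The predicted genes Gm14023 (-2.23) and Gm13889 (-2.15) fell as well (adjusted p at most 2.75e-06).

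The same IL-10 treatment without LPS changed far fewer genes, 358 of 12727 (2.81%). The unstimulated libraries share no sample with the LPS libraries, although replicate 2 was sequenced on another lane there. Of the genes called during LPS, 214 were also called without it (10.9% of the former and 59.8% of the latter), 132 higher in both, 62 lower in both and 20 in opposite directions. The difference between the effects was tested as an interaction, which was called in 804 of 10808 genes (7.44%), 432 with a more positive and 372 with a more negative effect during LPS, and 722 of them were among the 1968. Ggta1 changed during LPS by 4.56 and without LPS by 0.42 (interaction 4.14, SE 0.23, adjusted p = 3.18e-71), and Lcn2 by 3.11 and -0.28 (interaction 3.39, adjusted p = 6.85e-07). The reverse held for Socs3, which rose with IL-10 alone from 174, 23.7 and 36.2 to 931, 703 and 691 (log2 fold change 3.30, adjusted p = 1.23e-07; interaction -2.71, adjusted p = 0.0056), and for Ednrb (3.03 without and 1.11 with LPS; interaction -1.91, adjusted p = 0.000251). Arid5a rose without LPS (1.32, adjusted p = 7.36e-15) and fell with it (-0.93; interaction -2.24, adjusted p = 9.22e-25).

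For other genes that rose the interaction was not called. Ctsc changed by 0.89 during LPS and by 1.00 without LPS (interaction -0.12, SE 0.25, adjusted p = 0.926), Nxpe5 by 3.19 and 2.82 (interaction 0.37, SE 0.41, adjusted p = 0.788) and Bcl3 by 0.76 and 1.01 (interaction -0.25, SE 0.25, adjusted p = 0.753). A missed threshold does not show that these effects were equal. Genes that rose during LPS with a called interaction included Dusp1 (interaction 2.43, adjusted p = 1.76e-31), Pfkfb3 (2.08, adjusted p = 1.38e-42) and Il1rn (1.29, adjusted p = 2.44e-07), each uncalled with IL-10 alone (adjusted p = 0.301, 0.239 and 1). Irf8 was at a mean of 2541 in resting cells and 2555 with IL-10 alone, so that its fall was seen during LPS (interaction -1.46, adjusted p = 1.54e-08).

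**Figure D5:**
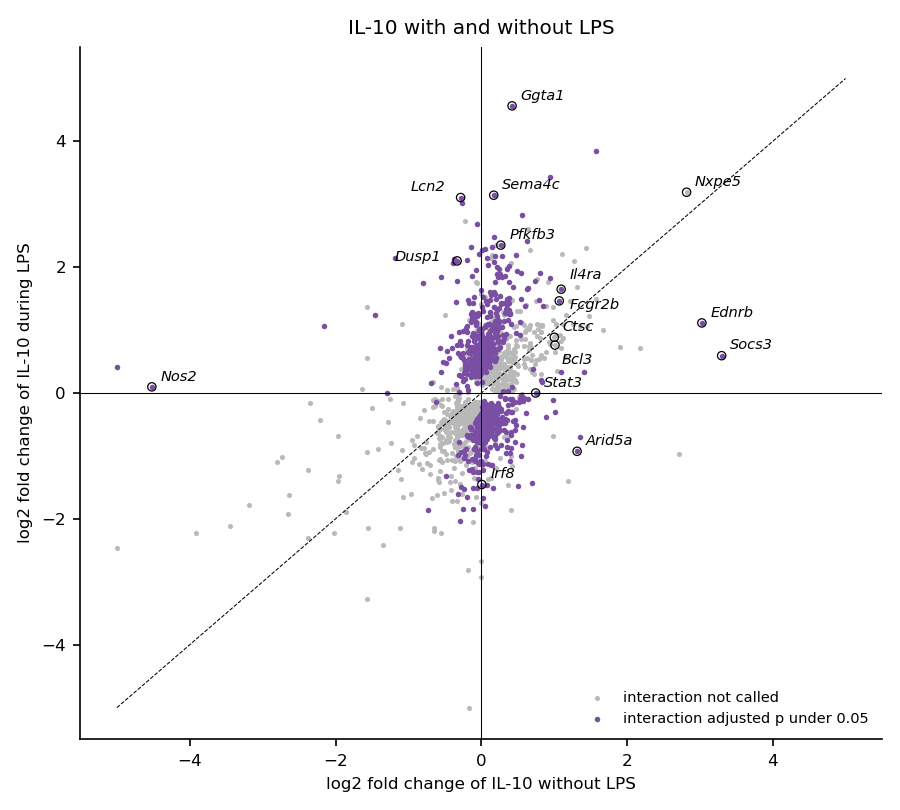
For genes called in either state, the log2 fold change of IL-10 without LPS on the x axis and during LPS on the y axis, drawn at 5 or -5 where it lay beyond, with the line of equal effect dashed. Genes whose interaction was called are purple and the others grey; Ggta1, Sema4c and Lcn2 lie near 0 without LPS and above 3 with it, while Socs3 and Ednrb lie at 3.30 and 3.03 without LPS.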

How the data were processed

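RNA was measured in 18 libraries (6 groups of 3) of Il10-/- BMDMs. Per the authors, libraries were stranded and depleted of ribosomal RNA; TagDust extracted the paired reads, STAR placed them on mm9 and RSEM 1.2.31 estimated gene levels. The deposited expected counts are RSEM estimates, not whole for 5.40% to 6.19% of genes in the 6 libraries, and were rounded. The deposited TPM values are scaled to gene length by the authors; the deposited FPKM values were not used here. Whether reads were counted by strand is not given in the sources used here, so overlapping and near-identical genes are uncertain.

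Groups and replicate numbers came from the titles. DESeq2 1.42.0 (R 4.3.3) was fitted to all 18 libraries by group alone (Wald test, sizes by median of ratios), with Benjamini-Hochberg adjustment at 0.05. Of the alternatives, edgeR 4.0.16 and limma 3.58.1 (pseudocounts 1 and 0.1), other scalings, count filters (at least 10), the lane, the replicate block and left-out libraries were planned; the block within the compared libraries was added after seeing the data. The smallest share a library could show, at 3 counts, was 0.137 to 0.232 CPM, covering counting error only. Replicates differed by more than sampling noise (chi-square per degree of freedom at least 4.85). The pipeline was tested on simulated data.

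Same-numbered libraries were taken to come from 1 mouse by their titles, and their deviations from the group means correlated at 0.203, 0.280 and 0.474 in the 3 pairs. Lanes matched within each pair of LPS libraries.

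Genes were named by rule: Il10, the 15 largest rises and falls (mean count of at least 100, same direction in 3 pairs), up to 5 called and the 2 most abundant members of each of 30 lists, 22 preset pathway genes and the 3 largest interactions each way. Other members named were chosen after their values were seen. The members and lists were chosen with earlier results of these data known. Positions come from GENCODE vM1 (mm9). Some genes are not reported here.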

Additional observations from a re-analysis of the deposited data

Results flagged for a closer look

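For 6 genes the effect of IL-10 differed with and without LPS by the interaction term of DESeq2, and these were the largest differences in each direction among genes whose interaction was called, that averaged 100 or more normalised counts over the 12 libraries of that contrast and whose difference had the same sign in all 3 mice. The difference (effect during LPS minus effect without LPS, log2) was 4.14 for Ggta1, 3.39 for Lcn2 and 4.62 for Nos2, and -2.71 for Socs3, -2.24 for Arid5a and -1.91 for Ednrb. The value for Nos2 rests on resting cells at the limit of detection, with a mean of 2.31 normalised counts without IL-10 and 0 in all 3 libraries with IL-10, so it depends on how the fit treats counts of 0 and gives no fold; during LPS the groups of Nos2 overlapped.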

How the results depend on the processing

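The 1968 calls became 1089 in the 6 libraries alone (558 higher and 531 lower, from 959 and 1009), 1922 with edgeR and 2116 once the replicate block was added (1930 in common with the 1968). The pairing rests on the replicate numbers of the titles. In the fit of 18 libraries the block changed the calls of Cd40 and Cd274 and no other of the genes described here. Added to the 6 libraries (chosen after seeing the data), the block gave 1993 calls and called 11 genes described here that were not called across the 18, among them Cd74, Cd14, Ccl5, Rsad2 and Ptgs2. Higher calls numbered 1511, 1441 and 1524, and lower calls 615, 472 and 426, with total-count scaling and with limma on log2(TPM + 1) and log2(TPM + 0.1). Leaving out single libraries or mice gave 874 to 2146 calls, 487 to 1042 higher, 387 to 1104 lower and 291 to 1023 interactions, and limma on log2(TPM + 0.1) gave 529 interactions in place of 804. Of 146 called genes given values in the text, 114 kept their call and direction in 9 alternatives that used all mice (block, compared libraries, edgeR, 2 scalings, both TPM fits, filter, lane). Without mouse 1, 2 or 3 a call was lost in 8, 37 and 28 of 164 genes named in the text, and not every such loss is given beside its gene. Directions turned for uncalled genes near 0: Fcer1g (0.0494 with total counts, 0.055 with both TPM fits, -0.106 to 0.0279 with libraries left out), Tnfaip3 (0.0808, 0.0956 and 0.0957, and -0.0311 to 0.00644), H2-Ab1 (-0.0327 to 0.146), Myd88 (-0.0437 to 0.0481) and Stat3 (-0.0411 to 0.0367), the last 3 with libraries left out. The causes were not tested. With 3 libraries a group, a miss does not show that a gene was unaffected.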
